A study of Mus musculus with 13 samples.

Results

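The genes described here are 44 genes of the mitotic spindle, the kinetochore and the spindle checkpoint, with the cyclins and kinases that start mitosis and a pair of proliferation markers. They were chosen by name, from what their proteins do, with earlier results of these data known. The names were matched by Ensembl identifier and symbol to the mouse annotation. All 44 were found among the 53465 genes of the count table. Liver RNA was taken from male BALB/c mice, 6 WT and 7 *Nod2*-/-, and each library came from 1 mouse. By the labels the libraries were made from polyadenylated RNA with strand kept. *Nod2*-/- mice lack Nod2, a sensor of bacterial peptidoglycan, in every cell of the body. WT and *Nod2*-/- mice were bred in the same room from different parents and were not littermates, so genotype and family cannot be told apart. Mice of both genotypes received the carcinogen DMBA as pups and were kept on HFD, a high-fat diet. The labels give an age of 30 weeks, 30 weeks of diet, and cancer as the disease state of every mouse. For the time on the diet the paper gives a slightly higher value. The paper reports liver tumors in a larger share of *Nod2*-/- than of WT males treated this way. No label says which livers or pieces of liver held tumor tissue, so genotype and tumor tissue cannot be told apart.

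In a dividing cell, Cdk1 with cyclins A and B starts mitosis, and kinases of the Polo and Aurora families build the spindle. Microtubules then attach to kinetochores, protein complexes on the centromere of each chromosome, and the checkpoint holds the cell until every kinetochore is attached. The anaphase promoting complex (APC/C) ends mitosis by marking cyclin B and securin for destruction, and cytokinesis divides the cell. Most hepatocytes of an adult liver are resting and many are polyploid, so RNA of these genes is scarce in liver until cells enter the cycle, as in regeneration or in a tumor.

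The libraries held 14886273 to 20579984 counts for WT and 13824780 to 19391431 for *Nod2*-/- livers. *Nod2* itself had at most 4 counts in a WT mouse and at most 6 in a *Nod2*-/- mouse, too few to check the genotype labels. Hepatocyte markers were abundant in every library, with albumin (*Alb*) the most abundant, and their sum was 94707 to 190121 CPM, the usual scale for counts relative to the size of the library. Normalized counts below are counts scaled by edgeR's TMM factors to the mean library.

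The 44 genes together held 13747 counts over the 13 libraries, or 0.00636% of all counts. Raw sums were 693, 551, 1293, 659, 625 and 891 counts in WT replicates 1 to 6. In *Nod2*-/- replicates 1 to 7 they were 1282, 1918, 810, 1009, 1097, 829 and 2090. Each gene had few counts, and 41 of the 44 had a count in every mouse. Per kilobase of exon, the mean level ran from 0.651 normalized counts for *Kif15*, a spindle motor, to 43.7 for *Spc25*, a subunit of the kinetochore's Ndc80 complex, with a median of 3.37. *Spc25* alone gave 13.3% of the pooled counts.

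The pooled signal was higher in *Nod2*-/- livers. As CPM after TMM scaling, the sums were 42.8, 36.4, 70.5, 43.6, 41.6 and 44 in WT replicates 1 to 6, with a mean of 46.5 ± 12.1 (SD, n = 6). They were 81.8, 115, 50.2, 60.7, 58.2, 56.9 and 124 in *Nod2*-/- replicates 1 to 7, with a mean of 78.0 ± 29.8 (SD, n = 7). The ratio of means was 1.68 (0.75 on the log2 scale). *Nod2*-/- replicates 1, 2 and 7 were above every WT mouse, and the other *Nod2*-/- mice were below WT replicate 3 and above the other WT mice. Without WT replicate 3 the WT mean was 41.7 ± 3.07 (SD, n = 5), the ratio was 1.87, and all 7 *Nod2*-/- mice were above every WT mouse left. Without *Nod2*-/- replicate 7 the ratio was 1.51. More dividing cells and more mitotic RNA per cell cannot be told apart in RNA of whole liver.

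**Figure D1:**
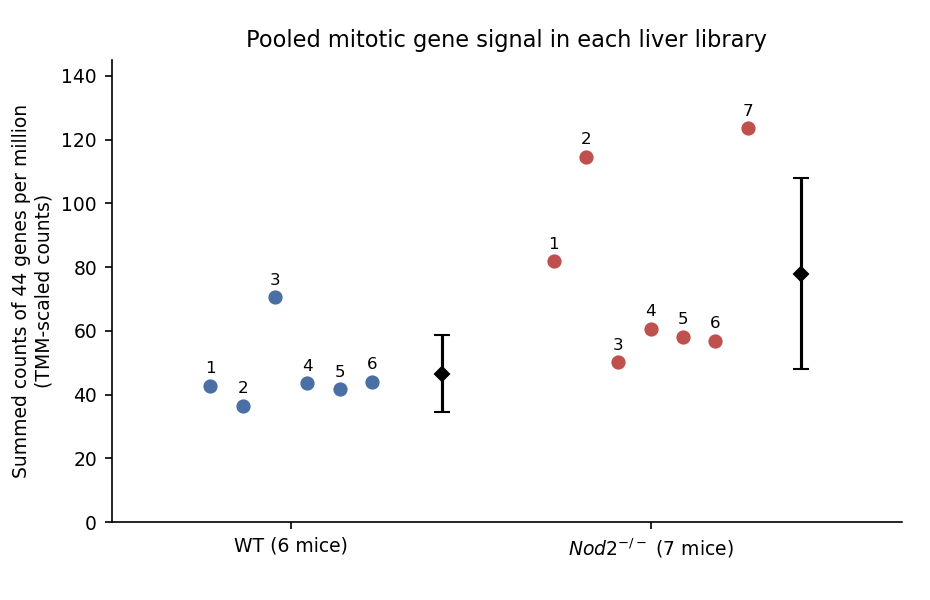
Counts of the 44 mitotic genes summed in each library, as TMM-scaled CPM (vertical axis), for 6 WT and 7 *Nod2*-/- mice, with libraries as numbered points and the mean and SD of each genotype as diamonds with bars. WT replicate 3, at 70.5, lies among the *Nod2*-/- values, and *Nod2*-/- replicates 2 and 7, at 115 and 124, are the highest.

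The same libraries stood out gene by gene. WT replicate 3 was the highest WT mouse for 38 of the 44 genes. *Nod2*-/- replicate 7 was the highest of all 13 mice for 25 genes and *Nod2*-/- replicate 2 for 13. *Nod2*-/- replicate 2 was above every WT mouse for 40 genes, replicate 7 for 38 and replicate 1 for 21. *Nod2*-/- replicates 3, 4, 5 and 6 were above every WT mouse for 3, 8, 5 and 9 genes.

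**Figure D2:**
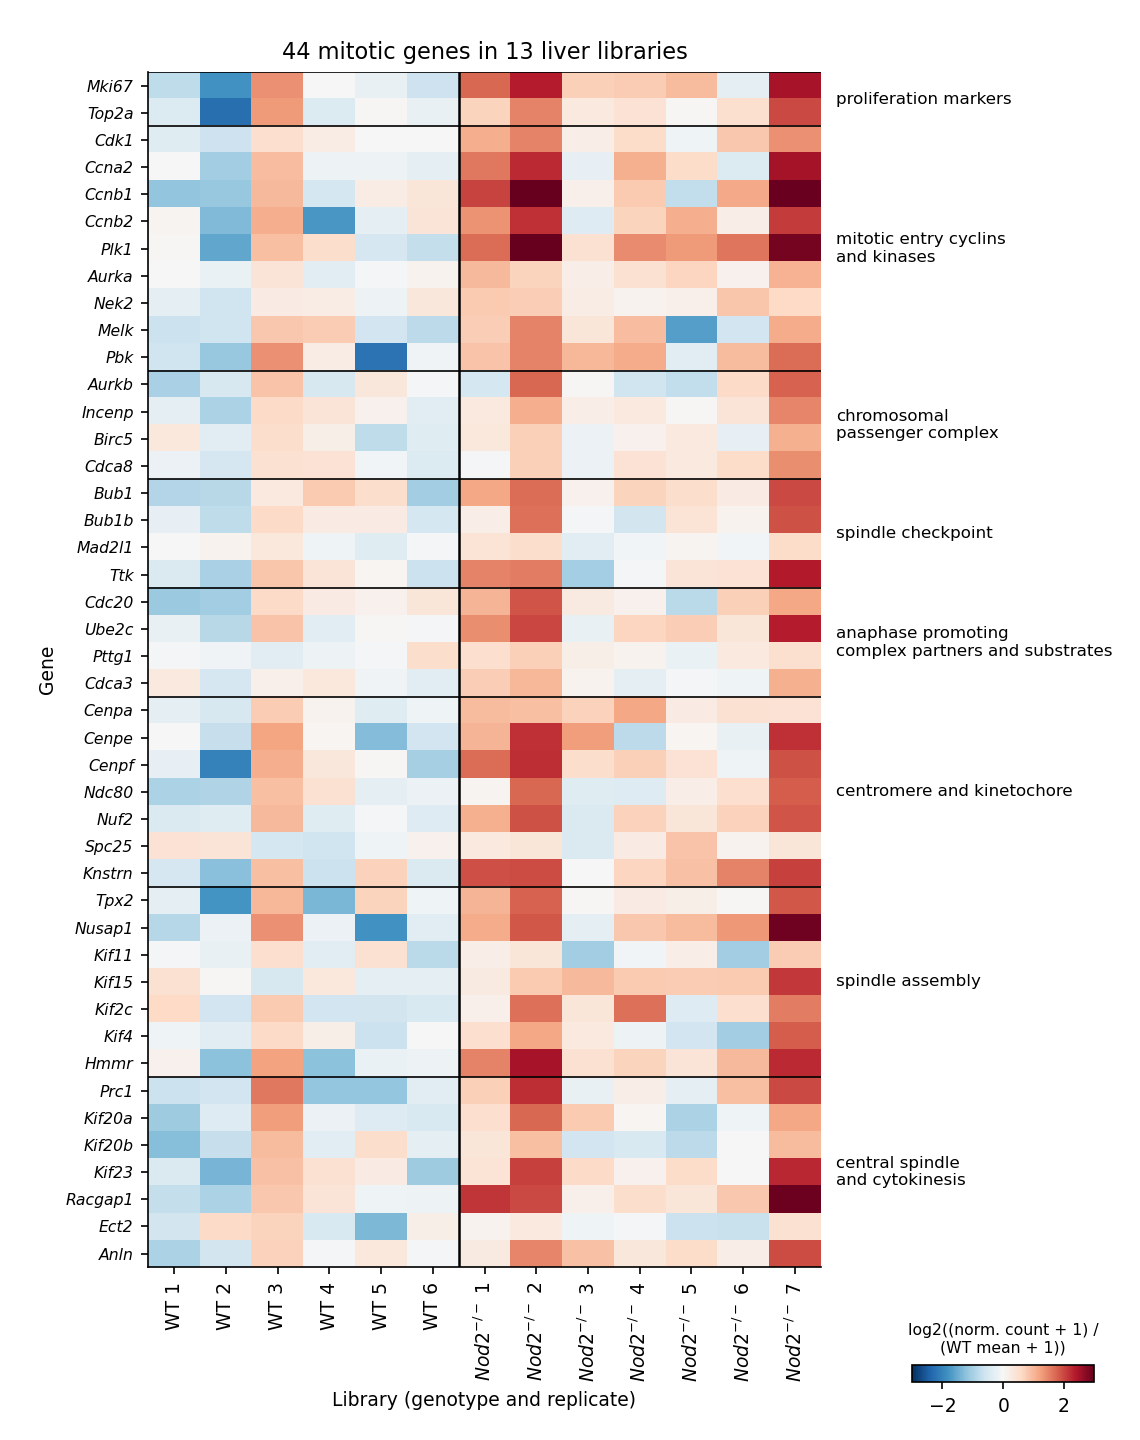
Normalized counts of the 44 genes (vertical axis, by role) in the 13 libraries (horizontal axis), each as log2 of the normalized count plus 1 over the WT mean plus 1, red above and blue below the WT mean. Red runs through nearly all genes in *Nod2*-/- replicates 2 and 7, and WT replicate 3 is the reddest WT column.

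The mean of 43 of the 44 genes was higher in *Nod2*-/- mice, with *Ect2* the exception. Ratios of the means ran from 0.976 for *Ect2* to 5.60 for *Plk1*, with a median of 1.98, and 22 genes had a ratio of at least 2. Of the 44, 0 separated the genotypes completely, near the 0.783% of all genes with a count that did so in either direction and the 0.413% that were higher in every *Nod2*-/- mouse. With edgeR's quasi-likelihood test (two-sided, Benjamini-Hochberg adjustment) on all genes with a count, 43 of the 44 had a positive log2 fold change, against 54.0% of all 27602 genes. Their median log2 fold change was 0.94, and over all of these genes it was 0.05. Of the 44, 25 had an unadjusted p under 0.05, all higher, against 8.59% of all genes, and 0 passed 5% FDR, against 0.540%. Among the 7742 genes with a mean count in the range of the 44, 64.1% had a positive log2 fold change and 15.2% were higher with an unadjusted p under 0.05. Their median log2 fold change was 0.16.

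edgeR's expression filter kept 13545 genes and 27 of the 44. The filter asks for a minimum level in 6 libraries, and only 12 of the 27 reached it in all 13, so a gene could pass through the genotype in which it was high. In this fit, to which the fold changes below belong, 0 of the 27 passed 5% FDR (0.650% of all genes tested did so as higher and 0.509% as lower), and the lowest adjusted p was 0.0765, for *Knstrn*. Unadjusted p was under 0.05 for 14, all higher, against 12.9% of all genes tested. Log2 fold changes were positive for 26 of the 27 (52.3% of all genes tested), and the median was 0.73 against 0.02 over all genes tested. DESeq2's Wald test, the study's own tool, gave an adjusted p to 38 of the 44 and placed 11 past 5% FDR, all higher, against 4.38% of all genes as higher and 4.03% as lower. Both *Ccnb1* and *Plk1*, which edgeR's filter had left out, were among the 11, so that 9 of the 27 passed with DESeq2, which also filters genes differently. Of the 11, 9 are in the study's own table of changed genes, which was chosen on these samples and is not independent evidence. The other 2 were *Ube2c* and *Cenpa*. When WT replicate 3 was left out, 7 of the 44 passed 5% FDR by edgeR (*Mki67*, *Ube2c*, *Cenpa*, *Knstrn*, *Nusap1*, *Hmmr* and *Racgap1*), all higher, against 5.12% of all genes tested as higher. That mouse was the highest WT mouse for 38 of the 44, so leaving it out lowers their WT means and these calls are not separate evidence. With all mice, *Ube2c*, *Nusap1* and *Hmmr* reached the filter's level in only 1 WT mouse, and *Knstrn* and *Racgap1* in 2. Two-sided exact permutation tests, whose smallest possible p is 0.000583, gave p under 0.05 for 16 of the 44, all higher, and for 6.81% of all genes with a count as higher. After adjustment over all genes, the lowest of these was 0.209.

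**Figure D3:**
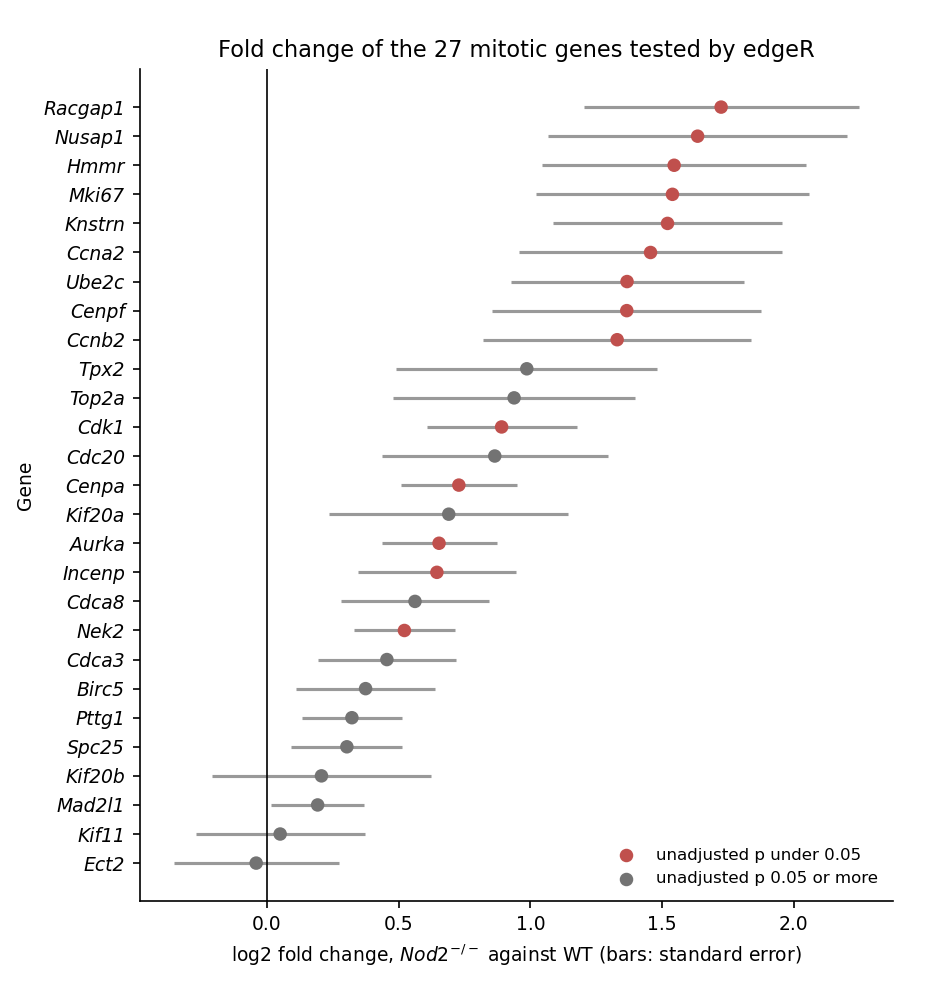
Log2 fold change of *Nod2*-/- against WT (horizontal axis) with its standard error for the 27 mitotic genes that edgeR tested, sorted by size, with red points for an unadjusted p under 0.05. The values run from -0.04 for *Ect2* to 1.72 for *Racgap1*, and no gene passed 5% FDR.

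The proliferation markers had the largest ratio of pooled counts of any role. Their sum was 3.52 ± 2.85 CPM (SD, n = 6) in WT and 8.83 ± 5.41 CPM (SD, n = 7) in *Nod2*-/- mice, a ratio of 2.51. *Mki67* encodes Ki-67, which coats mitotic chromosomes and is the standard marker of cycling cells. In WT replicates 1 to 6 it had 19, 8, 98, 31, 26 and 26 counts, and in *Nod2*-/- replicates 1 to 7 it had 107, 178, 54, 58, 74, 24 and 195. WT replicate 3 exceeded the *Nod2*-/- replicates 3 to 6, so the genotypes overlapped, although 3 *Nod2*-/- mice were above every WT mouse. The log2 fold change was 1.54 with a standard error of 0.52 (edgeR adjusted p = 0.108), 2.11 without WT replicate 3 (adjusted p = 0.0265) and 1.29 without *Nod2*-/- replicate 7 (adjusted p = 0.210). *Top2a*, the topoisomerase that untangles sister chromatids, had 4.39 to 61.5 normalized counts in WT mice (median 20) and 25.5 to 101 in *Nod2*-/- mice (median 35.3). Only WT replicate 3 was above the lowest *Nod2*-/- mouse, and the log2 fold change was 0.94 with a standard error of 0.46 (edgeR adjusted p = 0.236).

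The genes of mitotic entry comprised the mitotic cyclins and 6 kinases. Their sum was 7.52 ± 2.37 CPM (SD, n = 6) in WT and 14.6 ± 5.85 CPM (SD, n = 7) in *Nod2*-/- mice, and 4 *Nod2*-/- mice were above every WT mouse. *Cdk1*, the kinase that drives entry, had 15.4 to 34.3 normalized counts in WT (median 24.0) and 22.0 to 69.4 in *Nod2*-/- mice (median 43.2). In 5 of the 7 *Nod2*-/- mice it exceeded the whole WT range. *Ccna2*, cyclin A2, had 5.48 to 24.4 in WT (median 11.0) and 9.10 to 74.5 in *Nod2*-/- mice (median 26.9), with *Nod2*-/- replicates 3, 5 and 6 within the WT range. *Ccnb2*, cyclin B2, had 2.19 to 21.7 in WT (median 8.99) and 7.19 to 47.6 in *Nod2*-/- mice (median 22.0). For both cyclins 4 *Nod2*-/- mice were above every WT mouse, and the log2 fold changes were 1.46 and 1.33, with standard errors of 0.50 and 0.51 (edgeR adjusted p = 0.113 and 0.145).

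The filter of edgeR left out *Ccnb1* and *Plk1*. *Ccnb1*, cyclin B1, had 1, 1, 9, 2, 4 and 6 counts in WT mice and 17, 36, 4, 7, 2, 8 and 36 in *Nod2*-/- mice. After normalization WT replicate 3 lay above *Nod2*-/- replicates 3, 4 and 5, and the exact permutation p was 0.0653. *Plk1*, the Polo kinase that matures centrosomes and kinetochores, had 2, 0, 5, 3, 1 and 1 counts in WT mice and 8, 24, 3, 7, 7, 7 and 21 in *Nod2*-/- mice. All *Nod2*-/- mice but replicate 3 were above every WT mouse. Its means were 1.96 ± 1.69 (SD, n = 6) and 11.0 ± 7.89 normalized counts (SD, n = 7), with an exact permutation p of 0.00583, or 0.220 after adjustment over all genes.

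*Aurka* and *Nek2*, kinases of the centrosome, had smaller ratios and a narrow spread. *Aurka*, which builds the spindle poles, had 8.77 to 15.4 normalized counts in WT (median 11.2) and 12.5 to 24.5 in *Nod2*-/- mice (median 18.5). Here 5 *Nod2*-/- mice were above every WT mouse and 5 WT mice below every *Nod2*-/- mouse, at a log2 fold change of 0.65 with a standard error of 0.22 (edgeR adjusted p = 0.107). *Nek2*, which separates the centrosomes, had 36.2 to 71.2 in WT (median 57.2) and 59.8 to 100 in *Nod2*-/- mice (median 84.3). WT replicate 6 was its highest WT mouse, and the log2 fold change was 0.52 with a standard error of 0.19 (edgeR adjusted p = 0.132). *Melk* and *Pbk*, kinases expressed in cycling cells, had at most 14 counts in any mouse and ratios of means of 1.80 and 2.41, the latter 4.02 without WT replicate 3.

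The chromosomal passenger complex, in which Aurora B corrects faulty attachments, had smaller ratios. Its genes summed to 4.80 ± 1.45 CPM (SD, n = 6) in WT and 6.94 ± 2.86 CPM (SD, n = 7) in *Nod2*-/- mice, and 2 *Nod2*-/- mice were above every WT mouse. *Incenp*, the scaffold of the complex, had 12.1 to 36.2 normalized counts in WT (median 23.0) and 24.6 to 68.6 in *Nod2*-/- mice (median 29.9). Its log2 fold change was 0.65 with a standard error of 0.30 (edgeR adjusted p = 0.215), and *Nod2*-/- replicates 2 and 7 alone exceeded WT replicate 3. *Birc5*, survivin, had the highest level per kilobase of the complex, and its normalized counts were 18.8 to 47.9 in WT (median 31.8) and 27.3 to 69.6 in *Nod2*-/- mice (median 40.4). The genotypes overlapped widely, at a log2 fold change of 0.37 with a standard error of 0.27. *Aurkb*, the kinase itself, and *Cdca8*, borealin, had ratios of means of 1.72 and 1.48.

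Among checkpoint genes the one with the highest level per kilobase had the smallest ratio. *Mad2l1*, whose product holds back the APC/C, had 40.9 to 66.0 normalized counts in WT (median 52.0) and 42.1 to 77.4 in *Nod2*-/- mice (median 55.4). Only *Nod2*-/- replicates 1, 2 and 7 exceeded the WT range, at a log2 fold change of 0.19 with a standard error of 0.18. *Bub1*, *Bub1b* and *Ttk*, checkpoint kinases and a kinase-like protein of the kinetochore, had 1 to 11 counts in WT and 1 to 27 in *Nod2*-/- livers, and ratios of means of 2.50, 1.84 and 2.51. For these genes 2 or 3 *Nod2*-/- mice were above every WT mouse.

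Among partners and substrates of the APC/C, *Ube2c* had the largest ratio. *Ube2c*, the ubiquitin-conjugating enzyme of the complex, had 4.39 to 16.3 normalized counts in WT (median 7.68) and 7.19 to 48.0 in *Nod2*-/- mice (median 14.9). WT replicate 3 was again the highest WT mouse and 3 *Nod2*-/- mice were above it. The log2 fold change was 1.37 with a standard error of 0.44 (edgeR adjusted p = 0.100), 1.65 without WT replicate 3 (adjusted p = 0.0459) and 1.06 without *Nod2*-/- replicate 7 (adjusted p = 0.197). *Cdca3*, which targets the kinase Wee1 for destruction, had 25.2 to 45 in WT (median 36.5) and 29.9 to 76.4 in *Nod2*-/- mice (median 39.0), with *Nod2*-/- replicates 1, 2 and 7 above the rest. *Cdc20*, the activator of the complex, and *Pttg1*, securin, had ratios of means of 1.85 and 1.26. A list of 16 APC/C genes held 14 subunits with the coactivator *Fzr1* and the ubiquitin-conjugating enzyme *Ube2s*, and all were tested. Of the 14 subunits 7 were higher and 7 lower, with a median log2 fold change of 0.00. Unadjusted p was under 0.05 for 0 as higher and 1 as lower, against 12.9% and 10.2% of all genes tested, and 0 passed 5% FDR by edgeR or by DESeq2. *Fzr1* and *Ube2s* had log2 fold changes of 0.13 and 0.33, and neither passed.

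Pooled sums of kinetochore genes had more *Nod2*-/- mice above every WT mouse than those of any other role. Most of these counts came from *Spc25* and *Cenpa*. The sums were 12.4 ± 1.67 CPM (SD, n = 6) in WT and 19.1 ± 3.69 CPM (SD, n = 7) in *Nod2*-/- mice, and 6 of the 7 *Nod2*-/- mice were above every WT mouse. Below every *Nod2*-/- mouse were 4 WT mice, against 5 for the proliferation markers and for mitotic entry. *Cenpa*, the histone H3 variant that marks centromeres, had 38.4 to 92.2 normalized counts in WT (median 46.6) and 64.2 to 122 in *Nod2*-/- mice (median 88.3). All WT mice but replicate 3 were below every *Nod2*-/- mouse, and *Nod2*-/- replicate 4 was the highest. The log2 fold change was 0.73 with a standard error of 0.22 (edgeR adjusted p = 0.0865), 0.94 without WT replicate 3 (adjusted p = 0.0174) and 0.77 without *Nod2*-/- replicate 7 (adjusted p = 0.125). *Knstrn*, kinastrin, which steadies the attachment of microtubules, had 3.29 to 18.1 in WT (median 6.35) and 9.25 to 41.2 in *Nod2*-/- mice (median 27.3). WT replicates 3 and 5 overlapped with the *Nod2*-/- mice. Its log2 fold change was 1.52 with a standard error of 0.43 (edgeR adjusted p = 0.0765).

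*Cenpf*, a large protein of the outer kinetochore, had 1.1 to 17.2 normalized counts in WT (median 6.94) and 6.83 to 38.7 in *Nod2*-/- mice (median 13). The log2 fold change was 1.37 with a standard error of 0.51 (edgeR adjusted p = 0.137), with *Nod2*-/- replicates 1, 2 and 7 above every WT mouse. *Spc25*, in contrast, had 81.1 to 168 in WT (median 124) and 91.4 to 223 in *Nod2*-/- mice (median 151), at a log2 fold change of 0.30 with a standard error of 0.21. *Nod2*-/- replicate 5 was its highest library and the only one above every WT mouse, and WT replicate 1 was next. Its partners in the Ndc80 complex, *Ndc80* and *Nuf2*, had 1 to 11 counts in WT and 2 to 20 in *Nod2*-/- livers. Per kilobase they were at 0.680 and 1.24 normalized counts, far below *Spc25*. *Cenpe*, a kinetochore motor, had a ratio of means of 2.60.

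Spindle assembly genes ranged widely in their ratios. *Nusap1*, which bundles spindle microtubules, had 3, 5, 20, 5, 1 and 6 counts in WT mice and 14, 26, 5, 12, 15, 15 and 56 in *Nod2*-/- mice. *Nod2*-/- replicates 2 and 7 were above WT replicate 3. Its log2 fold change was 1.63 with a standard error of 0.57 (edgeR adjusted p = 0.117), 2.29 without WT replicate 3 (adjusted p = 0.0319) and 1.16 without *Nod2*-/- replicate 7 (adjusted p = 0.241). *Hmmr*, which focuses spindle poles, had 2.19 to 16.3 normalized counts in WT (median 5.63) and 8.79 to 40.6 in *Nod2*-/- mice (median 13.7). All WT mice but replicate 3 were below every *Nod2*-/- mouse, and the log2 fold change was 1.55 with a standard error of 0.50 (edgeR adjusted p = 0.101). *Kif11*, the motor that pushes the spindle poles apart, had 12.3 to 31.6 in WT (median 20.1) and 10.2 to 38.2 in *Nod2*-/- mice (median 25.4). The genotypes overlapped and did not differ beyond the error, at a log2 fold change of 0.05 with a standard error of 0.32.

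*Kif15*, a motor that backs up Kif11, was singled out after its values were seen, for the lowest permutation p of the 44. It had 6, 4, 3, 5, 3 and 4 counts in WT mice and 5, 8, 9, 8, 9, 7 and 22 in *Nod2*-/- mice. All *Nod2*-/- mice but replicate 1 were above every WT mouse, with an exact permutation p of 0.00466, or 0.209 after adjustment over all genes. *Tpx2*, which activates Aurora A, and *Kif2c* and *Kif4*, motor proteins that act on microtubule ends and chromosome arms, had ratios of means of 2.01, 2.23 and 1.58.

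Among genes of the central spindle and cytokinesis, *Racgap1* stood apart from the rest. *Racgap1*, which with *Kif23* forms the centralspindlin complex, had 4, 3, 15, 9, 6 and 8 counts in WT and 34, 32, 8, 11, 11, 12 and 64 in *Nod2*-/- mice. *Nod2*-/- replicates 1, 2 and 7 had the most counts, and after normalization replicates 3, 4 and 5 lay within the WT range. The log2 fold change was 1.72 with a standard error of 0.52 (edgeR adjusted p = 0.0867), the largest of the 27 tested. *Ect2*, the exchange factor that centralspindlin recruits to start the cleavage furrow, had 13.3 to 56.0 normalized counts in WT (median 32.7) and 21.6 to 49.0 in *Nod2*-/- mice (median 33.9). The *Nod2*-/- range lay within that of the WT mice, at a log2 fold change of -0.04 with a standard error of 0.31, whose sign changed when single mice were left out. *Prc1*, *Kif20a*, *Kif20b*, *Kif23* and *Anln*, which bundle the midzone and close the furrow, had ratios of means of 2.27, 1.63, 1.16, 2.46 and 2.07. Without WT replicate 3 the ratio of *Prc1* was 4.12.

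Some counts may include reads of other genes, because the sources used here do not say whether counting used strand or how reads mapping to several places were treated. As a check added after seeing the data, words of 43 bases, the read length, were compared with all other transcripts on both strands. In 8 of the 44 genes at least 10% of the words occurred in another gene. They were *Kif20a* (25.8%, mostly *Cdc23* on the opposite strand), *Ccnb1* (24.8%, mostly the pseudogene *Ccnb1-ps*), *Ube2c* (18.3%, mostly *Tnnc2* on the opposite strand), *Kif4*, *Cdc20*, *Plk1*, *Ccna2* and *Prc1*. The other 36 genes had at most 6.48%, so the values of the 8 are less certain.

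Other genes of mitosis came from a list of 79. Of these 41 were tested by edgeR, 29 higher and 12 lower, with a median log2 fold change of 0.31 against 0.02 over all genes tested, and 1 passed 5% FDR as higher and 1 as lower, against 0.650% and 0.509% of all genes. Without the filter 65 of the 79 were higher, with a median of 0.56 against 0.05 over all genes with a count. At an unadjusted p under 0.05, 18 were then higher and 3 lower, against 8.59% and 6.64% of all genes. *Cdc25b*, the phosphatase that activates Cdk1, rose. It had 12, 9, 18, 11, 14 and 15 counts in WT mice and 24, 32, 26, 32, 24, 18 and 53 in *Nod2*-/- mice, and after normalization all 7 *Nod2*-/- mice were above every WT mouse (log2 fold change 1.19, standard error 0.24, edgeR adjusted p = 0.0350). *Wee1*, the kinase that holds Cdk1 inactive, fell, from 426 to 633 counts in WT livers to 249 to 426 in *Nod2*-/- livers. The log2 fold change was -0.62 with a standard error of 0.13 (edgeR adjusted p = 0.0422), and 6 of the 7 *Nod2*-/- mice were below every WT mouse. Both calls were near the threshold and were lost in some fits that left out a mouse, as 7 of 13 fits kept *Cdc25b* and 5 of 13 kept *Wee1*. With the replicate number as a block neither passed (edgeR adjusted p = 0.134 and 0.101), and without the filter *Cdc25b* did not (edgeR adjusted p = 0.0540). *Ccnf*, cyclin F, and *Cenpp*, a centromere protein, had log2 fold changes of 0.64 and -0.83 and did not pass with edgeR (adjusted p = 0.0876 and 0.106). With DESeq2, 3 genes of the list were higher past 5% FDR (*Cdc25b*, *Ccnf* and *Spag5*) and 1 was lower (*Wee1*), of 54 with an adjusted p, against 4.38% and 4.03% of all genes.

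Regulators switch mitotic genes on and off. Of 23 such genes 20 were tested, 10 higher and 10 lower, with a median log2 fold change of -0.01. Unadjusted p was under 0.05 for 2 as higher and 4 as lower, against 12.9% and 10.2% of all genes tested. *Foxm1* and *Mybl2*, activators of mitotic transcription, were below edgeR's filter. *Foxm1* had 5 to 23 counts in WT and 7 to 29 in *Nod2*-/- livers, and *Mybl2* had 4 to 14 and 4 to 28, with exact permutation p of 0.135 and 0.230. *E2f1*, an activator of the start of the cell cycle, had a log2 fold change of -0.19 (edgeR adjusted p = 0.650). The largest difference was in *E2f8*, a repressor of cell cycle genes that takes part in hepatocyte polyploidy. It had 156, 216, 281, 227, 156 and 334 counts in WT mice and 73, 73, 69, 32, 132, 104 and 59 in *Nod2*-/- mice. All 7 *Nod2*-/- mice were below every WT mouse, at a log2 fold change of -1.53 with a standard error of 0.25 (edgeR adjusted p = 0.00828). It passed 5% FDR whichever of the 13 mice was left out, and did not pass with the replicate number as a block (edgeR adjusted p = 0.0746). *E2f8* and *Cdc25b* are also in the study's table of changed genes. *E2f2* and *Rbl2*, an E2F activator and a pocket protein of resting cells, had log2 fold changes of 0.79 and -0.36 and did not pass with edgeR (adjusted p = 0.0723 and 0.0959), whereas with DESeq2 they did (adjusted p = 0.0197 and 0.0358). With *E2f8* this made 1 of the 23 regulators higher and 2 lower past 5% FDR by DESeq2, against 4.38% and 4.03% of all genes.

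DNA replication genes act before mitosis. Of 37 genes 35 were tested, 24 higher and 11 lower, with a median log2 fold change of 0.11 and 0 past 5% FDR by edgeR. Unadjusted p was under 0.05 for 6 as higher and 3 as lower, beside 12.9% and 10.2% of all genes tested, and past 5% FDR by DESeq2 there were 0 higher and 2 lower (*Mcm10* and *Rpa1*), against 4.38% and 4.03%. The initiation factors *Mcm10* and *Orc6* had log2 fold changes of -0.78 and 0.44 (edgeR adjusted p = 0.108 and 0.0929). *Lig1*, which joins Okazaki fragments, and *Rpa1*, which covers single strands, had 0.75 and -0.25 (edgeR adjusted p = 0.106 and 0.105). *Mcm10* had 2049 to 3615 counts in WT and 944 to 3188 in *Nod2*-/- livers, and *Nod2*-/- replicates 1 and 2 were within the WT range. The difference between the replication and mitosis lists was not tested.

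Marker sums of other cells varied between single libraries, and the gap between the genotype means differed from list to list. Of 8 markers of granulocyte precursors, which divide in bone marrow, all had a higher mean in *Nod2*-/- mice. For *Gfi1* this rested on *Nod2*-/- replicate 7, with 14 counts against 0 to 2 in every other mouse. Their sums were 0.247, 0.264, 0.981, 1.19, 0.466 and 2.37 CPM in WT replicates 1 to 6 and 11.2, 14, 22.1, 80.1, 16.5, 17.3 and 118 CPM in *Nod2*-/- replicates 1 to 7, with *Prtn3* the most abundant over all mice. *Cebpe*, a transcription factor of granulocyte maturation, had 0 or 1 counts in WT and 92 to 251 in *Nod2*-/- livers (edgeR adjusted p = 4.52e-08) and gave most of the sum in *Nod2*-/- replicates 1, 2, 3, 5 and 6. In *Nod2*-/- replicate 4 most of the sum was *Prtn3*, with 1226 counts. The 6 markers without *Cebpe* and *Prtn3* summed to 0.124 to 0.491 CPM in WT mice, and to 0.319, 0.478, 0.991, 0.842, 3.34, 1.85 and 59.0 CPM in *Nod2*-/- replicates 1 to 7. *Nod2*-/- replicate 7 had the highest of these sums, and *Nod2*-/- replicates 1 and 2 were within the WT range. The 12 markers of mature neutrophils summed to 13.8, 14.8, 135, 63.1, 55.4 and 40.4 CPM in WT mice and 68.5, 94.7, 177, 972, 245, 84.0 and 4240 CPM in *Nod2*-/- mice. *Lcn2*, the most abundant of them, is also made by injured hepatocytes and is in the list of liver tumor genes. The 11 markers without *Lcn2* summed to 5.13, 4.23, 7.30, 8.33, 5.66 and 9.68 CPM in WT mice and 6.12, 10.9, 19.8, 21.7, 40.8, 24.8 and 993 CPM in *Nod2*-/- mice. WT replicate 6 was then the highest WT mouse, and *Nod2*-/- replicate 1 was within the WT range. Of the 12 markers edgeR tested 5, and all 5 were higher at an unadjusted p under 0.05, against 12.9% of all genes tested. Past 5% FDR there were 0 by edgeR and 4 higher by DESeq2, against 0.650% and 4.38% of all genes.

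Sums of the 13 erythroblast markers were 406, 539, 327, 409, 456 and 369 CPM in WT mice and 475, 395, 443, 945, 571, 761 and 1160 CPM in *Nod2*-/- mice, with *Hbb-bs* the most abundant over all mice. Without the filter 11 of the 13 were higher, with a median log2 fold change of 1.68. Unadjusted p was then under 0.05 for 10 as higher and 0 as lower, against 8.59% and 6.64% of all genes. With the filter 0 of 7 tested passed 5% FDR by edgeR (4 higher at an unadjusted p under 0.05, against 12.9%), and 3 were higher by DESeq2, against 4.38%. The 10 liver tumor genes summed to 17.5, 22.0, 514, 70.1, 82.6 and 102 CPM in WT mice and 547, 462, 207, 1559, 355, 89.3 and 3453 CPM in *Nod2*-/- mice, with *Lcn2* the most abundant over all mice and *Igf2* at 1 count or fewer in every mouse. The 9 genes without *Lcn2* summed to 8.84, 11.4, 386, 15.3, 32.8 and 71.2 CPM in WT mice and 485, 378, 49.6, 608, 151, 30.1 and 207 CPM in *Nod2*-/- mice, with WT replicate 3 still the highest WT mouse. Of the 10, edgeR tested 8, with 4 higher and 0 lower at an unadjusted p under 0.05, against 12.9% and 10.2%. Past 5% FDR there were 0 by edgeR and 2 higher by DESeq2, against 0.650% and 4.38%. The 8 genes of bile duct and progenitor cells, led by *Spp1*, summed to 38.1, 36.6, 235, 58.2, 99.5 and 127 CPM in WT mice and 230, 304, 183, 411, 110, 159 and 230 CPM in *Nod2*-/- mice, with *Cldn4* at 3 counts or fewer. Of these 6 were tested, 4 higher and 2 lower, with a median log2 fold change of 0.18 against 0.02 over all genes tested. Only *Sox9*, a transcription factor of bile duct cells, passed 5% FDR, as higher (log2 fold change 1.29, edgeR adjusted p = 0.0324), against 0.650% of all genes. No marker of these lists was at 0 in all mice.

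Sums of the 11 T and NK cell markers (*Cd4* the most abundant, *Cd8b1* and *Gzmb* at 3 counts or fewer) were 3.37 to 5.61 CPM in WT mice. They were 2.40 to 11.1 CPM in *Nod2*-/- mice, of which 3 were above every WT mouse. The 11 macrophage markers, led by *Clec4f*, summed to 122 to 227 CPM in WT and 155 to 448 CPM in *Nod2*-/- livers, with replicate 7 the highest. The 11 markers of B and plasma cells, led by *Xbp1*, which hepatocytes also express, and the 10 of endothelial and stellate cells, led by *Reln*, summed to 516 to 778 and 227 to 438 CPM. Lung epithelium markers, led by *Sftpc*, summed to 14.3 to 201 CPM in WT and 3.0 to 33.7 CPM in *Nod2*-/- livers. All 10 hepatocyte markers were tested, 5 higher and 5 lower, with a median log2 fold change of -0.06. At an unadjusted p under 0.05, 1 was higher and 3 were lower, against 12.9% and 10.2% of all genes tested. Past 5% FDR there were 0 by edgeR, and 0 higher and 3 lower by DESeq2, against 4.38% and 4.03%. WT replicate 3, the highest WT mouse for the mitotic sum, was also the highest for the markers of bile duct, liver tumors, and endothelial and stellate cells, and by a small margin for those of macrophages and of T and NK cells. Among WT mice it had the lowest sums for erythroblasts and for B and plasma cells. The part of any of these cells in the mitotic signal was not tested.

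Mitotic genes share short promoter elements, which the choice of the 44 did not use. The cell cycle homology region (CHR), TTTGAA or TTCGAA, is bound by the MuvB complexes, which repress these genes in resting cells and, with Mybl2 and Foxm1, activate them before mitosis. The CCAAT box is bound by NF-Y. RefSeq promoter windows of 300 bases on build GRCm38.p6 were matched for 38 of the 44 genes (not for *Aurkb*, *Ccna2*, *Incenp*, *Kif20a*, *Pbk* and *Tpx2*), and both strands were searched. A CHR match was found for 28 of the 38 genes, in 75.0% of their windows, against 19.2% of all 32851 windows. CCAAT was found in 70.0% of the windows against 37.4%, and both together for 23 of the 38 genes, in 62.5% of the windows against 7.52%. A match is a description of these letters and not a measured site.

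The CHR match closest to the gene's start is shown for the genes with an unadjusted edgeR p under 0.05 that had one and for *Plk1*, so that its surroundings can be compared. Each line is 30 bases on the gene's own strand, 5′ to 3′, with the match in capitals, and TTCAAA is TTTGAA read on the other strand. *Mki67* is at chr7:135716460-135716489 (minus), and the cell cycle kinases *Cdk1*, *Plk1* and *Aurka* are at chr10:69352910-69352939 (minus), chr7:122159453-122159482 (plus) and chr2:172370521-172370550 (minus). *Ccnb2* is at chr9:70421533-70421562 (minus) and *Ube2c* at chr2:164769888-164769917 (plus). The kinetochore genes *Cenpa* and *Cenpf* are at chr5:30666890-30666919 (plus) and chr1:189688067-189688096 (minus), and *Hmmr* and *Racgap1* at chr11:40733412-40733441 (minus) and chr15:99651634-99651663 (minus). *Nek2*, *Knstrn* and *Nusap1* had no match in their windows, and *Spc25*, *Kif11* and *Ect2* had a match although their means differed little.
Mki67: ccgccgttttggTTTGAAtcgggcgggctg
Cdk1: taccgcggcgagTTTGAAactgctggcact
Ccnb2: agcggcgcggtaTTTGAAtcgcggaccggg
Plk1: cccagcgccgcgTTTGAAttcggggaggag
Aurka: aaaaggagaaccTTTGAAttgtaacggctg
Ube2c: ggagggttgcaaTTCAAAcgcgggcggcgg
Cenpa: ggcgggtgatttTTTGAActgctggcgacc
Cenpf: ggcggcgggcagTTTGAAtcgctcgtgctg
Hmmr: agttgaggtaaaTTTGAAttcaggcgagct
Racgap1: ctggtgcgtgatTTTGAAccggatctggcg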

How the data were processed

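Paired reads of 6 WT and 7 *Nod2*-/- livers had been trimmed by Trimmomatic 0.33 and mapped by TopHat2 2.1.1 to GRCm38 (GENCODE release 16), and the authors deposited raw counts per gene as whole numbers. The counting program is not given in the sources used here. The members and lists were chosen with earlier results of these data known. Genes were named with GENCODE release 21. Counts were tested with edgeR 4.0.16 (TMM, filterByExpr with a minimum count of 10, glmQLFit and glmQLFTest, no covariate) in R 4.3.3, adjusted over all genes tested at a threshold of 0.05. edgeR's test gives no standard error, so those given here are the size of the log2 fold change over the square root of the test's F statistic. They therefore hold no information beyond the p-value. Sums over the 44 genes have no test. Exact permutation tests used all 1716 splits of the mice. Genes were described one by one if they had an unadjusted p under 0.05, were named in the paper, had the highest mean or lowest p of their role, or were lower, and the rest were given by ranges. From other pathway lists, genes past 5% FDR or with an unadjusted p under 0.01 (at most 4) were named, with *Foxm1*, *Mybl2*, *E2f1* and *E2f8*, and from marker lists the most abundant gene. Alternatives were DESeq2 1.42.0, limma 3.58.1 (voomWithQualityWeights), sva 3.50.0, RLE factors, other filters, a robust fit, a replicate block, and leaving out mice. Scripts were tested on simulated data. Ratios of means without WT replicate 3 and marker sums without *Cebpe*, *Prtn3* or *Lcn2*, and the naming of *Cebpe* and *Sox9*, were chosen after seeing the data.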

Additional observations from a re-analysis of the deposited data

Results flagged for a closer look

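A mouse far from the others of its genotype was found in 15 of the 90 groups of values examined (44 genes and their pooled sum in each genotype). The rule was Dixon's gap over range at 95%. For normally distributed values chance alone would give about 1 in 20 groups, or 4.5, but counts this low need not be normal. WT replicate 3 was the mouse in 12 of them, each time as the highest WT mouse. Its normalized counts were 88.6 for *Mki67*, 61.5 for *Top2a*, 24.4 for *Ccna2*, 16.3 for *Ube2c*, 92.2 for *Cenpa* and 10.8 for *Cenpe*. They were 9.94 for *Nuf2*, 18.1 for *Nusap1*, 16.3 for *Hmmr*, 28.0 for *Prc1* and 39.8 for *Kif20a*, and its pooled signal was 70.5 CPM. The genes share this library, so these are not separate events.

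*Nod2*-/- replicate 7 stood apart from its genotype at 54.9 normalized counts for *Nusap1* and 21.6 for *Kif15*. For *Pttg1* it was WT replicate 6, at 49.9 normalized counts against 33.1 in the next WT mouse.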

How the results depend on the processing

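Counts of genes past a threshold depended on the test and the mice, and directions mostly did not. The 157 genes past 5% FDR became 1209 with DESeq2 (630 of them higher), 843 with voomWithQualityWeights and 831 with 1 surrogate variable, and 41 to 1156 when single mice were left out. Without WT replicate 3 and *Nod2*-/- replicate 7, a choice made after seeing the data, there were 567. The mitotic genes past 5% FDR, 0 with edgeR, numbered 11 with DESeq2 (9 of the 27 that edgeR tested), 5 with voomWithQualityWeights, 5 with 1 surrogate variable, 3 without both mice and 0 to 7 without single mice. Those with an unadjusted p under 0.05 went from 14 of 27 tested to 26 of 44 with DESeq2 (15 of the same 27), 25 of 44 with edgeR without the filter, 4 with at least 10 counts in every mouse, where fewer genes are tested, and 11 to 19 without single mice.

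With the replicate number as a block there were 35 genes past 5% FDR and 5 mitotic genes with an unadjusted p under 0.05. The numbers do not pair the mice: correlations of same-numbered mice ran from -0.311 to 0.361, and no mouse correlated best with its own number.

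The median log2 fold change of the mitotic genes stayed at 0.62 to 1.01 and the pooled log2 ratio at 0.60 to 0.90 without single mice. Of the 27 mitotic genes tested, 25 kept their sign in every alternative that gave a value. *Kif11*, at 0.05, was -0.15 with the block and -0.12 to 0.18 without single mice. *Ect2*, at -0.04, was 0.27 with voomWithQualityWeights, 0.04 without both mice and -0.21 to 0.13 without single mice. The cause was not tested. Both motifs were found for 8 genes in place of 23 when only the 150 bases before the start were searched, in 22.5% of windows in place of 62.5%, and over all windows in 2.43% in place of 7.52%. Most of the 44 genes have under 10 counts in some mouse, and the size of difference that could be detected was not tested.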
